A study of Mus musculus with 24 samples.

Results

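Proline transfer RNAs carry proline to the ribosome and read its codons with the anticodons AGG, CGG and TGG. They were chosen by name: every row whose tRNA name ended in -Pro plus one of those anticodons. This gave 18 of the 435 tRNA genes, of which 7 were ProAGG, 3 ProCGG and 8 ProTGG. The same 18 names gave 54 of the 1305 rows of the tRNA fragment table, since each gene had a row for each of 3 fragment kinds, called tRF3a, tRF3b and tRF5.

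A tRNA is cut from a longer precursor, trimmed at both ends, given a CCA tail, modified at many bases and charged with its amino acid. Small RNAs can then be cut from it, and by common usage tRF5 names a fragment from the 5′ end, while tRF3a and tRF3b name a shorter and a longer fragment from the 3′ end that includes the tail. The sources used here do not give the submitters' own definition. The 3′ end of mouse proline tRNA is also known as the primer for reverse transcription in murine leukaemia viruses. TET2 is an enzyme known for oxidising methylated cytosine in DNA, and it can also turn 5-methylcytosine in RNA into 5-hydroxymethylcytosine (hm5C).

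All samples were mouse embryonic stem cells, cultured with serum, leukaemia inhibitory factor, 3 µM CHIR99021 and 1 µM PD0325901. TET2 CLIP and its input came from clones 65 and 75 of strain E14; Tet2HA-His, with 2 replicates in each of the 4 groups. These cells received 500 µM 4SU, a photoreactive uridine analogue, over 4 h before crosslinking with 400 mJ/cm2 UVB. CLIP recovers the RNA crosslinked to a protein. CLIP of cells without the tagged TET2 was not analysed here. RIP with hm5C and its input, 2 replicates each, came from untreated cells of strain B6;129, and the labels gave no genotype for them. Small RNA of 14 to 38 nt came from untreated Tet2 KO and WT cells (experiment 1) and from a separate set of Tet2 KO cells with E14 control cells (experiment 2), with 3 replicates a group and the strain label B6; 129 throughout. Experiment 1 used a TruSeq kit and experiment 2 a NEBNext kit, so kit, control line and knockout set cannot be told apart between the experiments.

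Total counts were 221060 to 453944 in TET2 CLIP and 913002 to 4729463 in CLIP input libraries, 1564014 to 2100187 in hm5C RIP and 4641963 to 4889943 in RIP input libraries, and 96070 to 173450 tRNA fragment counts in the small RNA libraries. The 9 stem cell markers checked, among them Pou5f1, Nanog and Sox2, had counts in every CLIP and RIP input library. Their summed levels were 1311 to 2235 CPM (counts per 1e6 reads counted) in CLIP input and 24.6 to 25.6 CPM in RIP input. Markers of endoderm, trophoblast and fibroblasts were also counted, at lower sums. In that order they were 28.5 to 43.5, 179 to 424 and 3.29 to 7.90 CPM in CLIP input. In RIP input they were 1.72 to 2.66, 0.862 to 1.43 and 2.86 to 3.23 CPM. The trophoblast marker Gata3 alone had 173 to 418 CPM in CLIP input, above Pou5f1 at 78.9 to 116 CPM. The presence of counts alone thus does not identify the cells. The fragment table held tRNA rows only, so neither the cell type nor the loss of Tet2 could be checked there. Replicate 1 of WT in experiment 1 stood apart: tRF5 took 85.3% of all its fragment counts, against 70.1% and 71.1% in the other WT libraries, and its scaling factor was 0.592.

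The proline genes fell into a counted set of 14 and a sparse set of 4. The 14 counted genes, 6 of ProAGG, 3 of ProCGG and 5 of ProTGG, each had 2858 to 3011 tRF3a counts over the 12 small RNA libraries. Of the other 4, chr11.tRNA372-ProTGG had 22 tRF3a counts and chr17.tRNA997-ProTGG had 24, while chr1.tRNA284-ProAGG and chrX.tRNA935-ProTGG had 0. Of those 4, chrX.tRNA935-ProTGG also carried 89 tRF5 counts and the others 1 to 4.

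Within each small RNA library the 14 tRF3a rows were almost equal. In replicate 3 of Tet2 KO in experiment 1, for example, they ran from 369 to 430 counts. The variance over rows divided by their mean, which is 1 for pure counting noise, was 0.911 to 1.58 in the 6 libraries of experiment 1 and 0.404 to 1.35 in those of experiment 2. The tRF3a share of each isoacceptor followed its number of gene copies: ProAGG held 42.2% to 44.3% of these counts with 42.9% of the copies, ProCGG 19.5% to 24.5% with 21.4%, and ProTGG 33.0% to 37.1% with 35.7%. So tRF3a counts did not tell the proline genes or anticodons apart, and the 14 rows are described below as 1 summed measurement. The tRF3b rows of the same 14 genes were also near counting noise, with a variance over mean of 0.248 to 1.91 (median 0.949) in experiment 1 and 0.783 to 2.36 (median 1.14) in experiment 2. The sources used here do not say how reads matching several copies were assigned.

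The tRF5 rows did differ between copies, with a variance over mean of 30.9 to 92.7 in experiment 1 and 8.50 to 21.4 in experiment 2 over 15 rows. In experiment 1 the 3 ProCGG genes held 58.1% ± 2.55 of proline tRF5 counts in Tet2 KO and 50.4% ± 3.55 in WT cells (SD, n = 3 each). In experiment 2 they held 23.3% ± 0.722 in Tet2 KO and 23.5% ± 0.215 in E14 cells (SD, n = 3 each). ProAGG took the larger part there, with 43.5% ± 0.936 in Tet2 KO and 41.1% ± 0.684 in E14 cells, against 16.4% ± 2.45 in Tet2 KO and 21.0% ± 3.75 in WT cells of experiment 1. The 5′ fragments of proline tRNA thus had their largest share under CGG names in experiment 1 and under AGG names in experiment 2. This held in knockout and control alike. Of the 15 copies, ProAGG held 40%, ProCGG 20% and ProTGG 40%. So the ProAGG and ProCGG shares of experiment 2 lay near their shares of the copies, while ProCGG in experiment 1 stood well above its own.

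**Figure D1:**
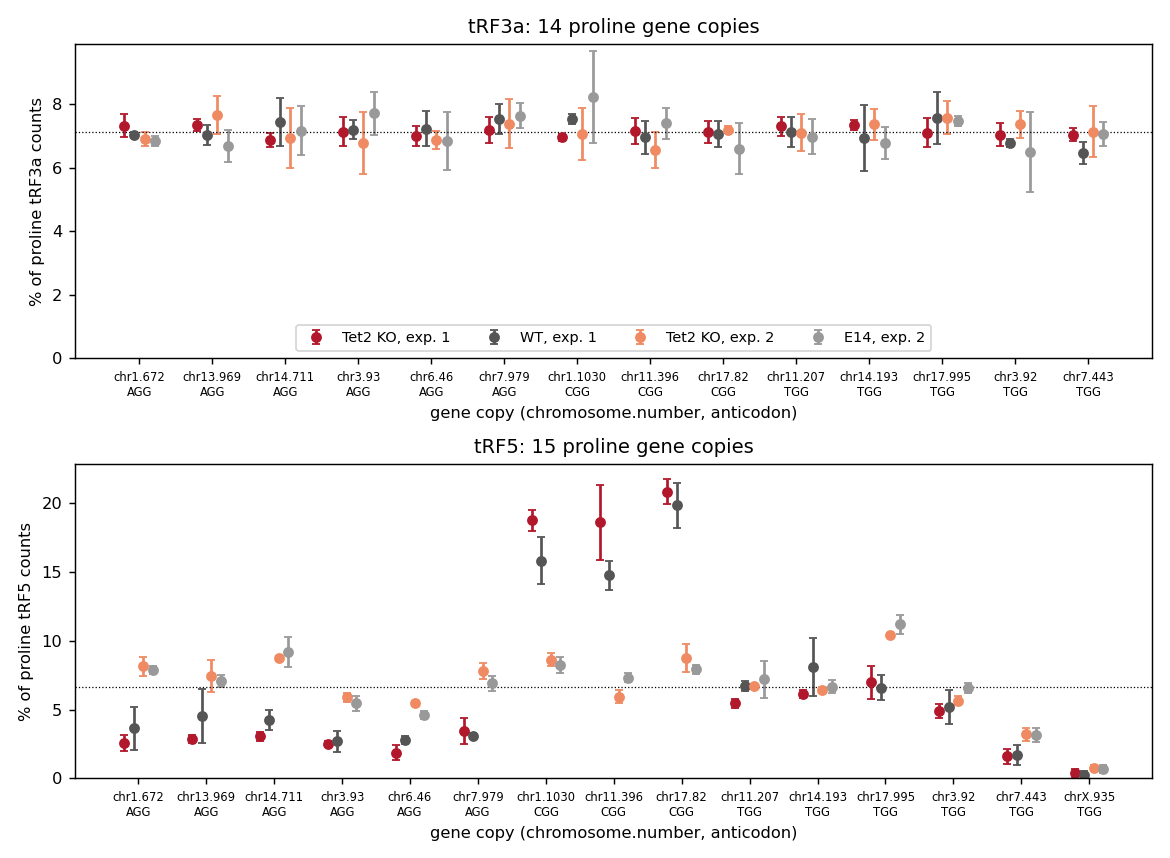
Share of proline tRF3a counts (top) and tRF5 counts (bottom) on each gene copy with more than 50 counts, in percent; points are group means over 3 libraries, bars the SD, and the dotted line an equal share for each copy. The 14 tRF3a copies lie close to the line in all 4 groups, while the ProCGG copies stand above the others for tRF5 in experiment 1, in both Tet2 KO and WT cells.

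Proline rows took a larger share of all tRNA fragments in knockout than in control libraries of both experiments. In experiment 1 the share was 8.44%, 7.95% and 7.68% in Tet2 KO cells, against 2.41%, 4.29% and 4.27% in WT cells, the 2.41% being replicate 1. In experiment 2 it was 3.09%, 2.74% and 2.41% in Tet2 KO cells, against 1.53%, 1.76% and 1.57% in E14 cells. Knockout and control libraries did not overlap in either experiment. A two-sided exact permutation test of the means gave p = 0.1 in each, which is the smallest value that 3 against 3 libraries allow.

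Most of the proline share was tRF3a in experiment 1, and tRF3a and tRF5 shared it in experiment 2. The kind tRF3a made up 78.3% ± 3.33 of proline fragment counts in Tet2 KO and 74.0% ± 1.22 in WT cells, and 50.1% ± 4.60 in Tet2 KO and 44.4% ± 4.09 in E14 cells (SD, n = 3 each). Fragments of other amino acids were mostly tRF5, at 53.0% to 87.0% of their counts in experiment 1 and 76.9% to 86.2% in experiment 2. Their tRF3a part also differed between knockout and control without overlap. It was 26.7%, 23.95% and 21.2% of their counts in Tet2 KO cells, against 6.33%, 13.2% and 15.1% in WT cells, in experiment 1. In experiment 2 it was 18.1%, 19.5% and 15.1% in Tet2 KO cells, against 14.8%, 11.8% and 11.6% in E14 cells. The part of this general shift in the proline values was not tested. The kind tRF3b made up 8.81% ± 1.24 in Tet2 KO and 9.98% ± 1.04 in WT cells, and 1.56% ± 0.250 in Tet2 KO and 2.28% ± 0.467 in E14 cells.

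**Figure D2:**
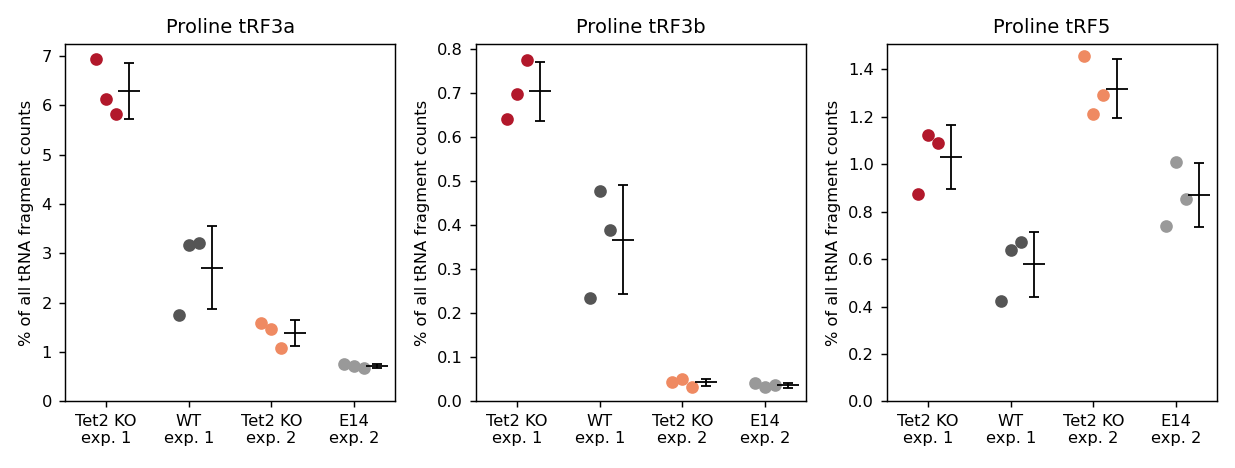
Proline tRF3a, tRF3b and tRF5 as a percentage of all tRNA fragment counts; each coloured point is 1 library, and the black bar and whiskers give the mean and SD of 3. Tet2 KO libraries lie above their controls for tRF3a and tRF5 in both experiments, and for tRF3b in experiment 1 only, where the difference between the experiments did not pass its test.

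The first test asked whether proline fragments changed in Tet2 KO against WT cells in experiment 1. All 3 kinds of proline fragment rose in the fit that summed all copies of each amino acid by kind. The tRF3a sum was 66829, 52572 and 57043 CPM in Tet2 KO cells, against 27123, 29356 and 27675 CPM in WT cells, after scaling by trimmed mean of M-values (TMM). Every knockout library stood above every WT library, and the log2 fold change was 1.07 ± 0.17 (SE; edgeR quasi-likelihood test, adjusted p = 0.000567). The tRF3b sum averaged 6579 ± 873 CPM in Tet2 KO and 3794 ± 552 CPM in WT cells (SD, n = 3 each), a log2 fold change of 0.79 ± 0.19 (edgeR adjusted p = 0.00596). The tRF5 sum averaged 9587 ± 1132 CPM in Tet2 KO and 6079 ± 409 CPM in WT cells (SD, n = 3 each), a log2 fold change of 0.66 ± 0.17 (edgeR adjusted p = 0.00832). Over all sums of 1 amino acid and 1 kind, 30.0% of 60 were called higher. Among them were 9 of 19 tRF3a sums, with proline at rank 4 by fold change, and 8 of 20 tRF3b sums, with proline at rank 5. Of 21 tRF5 sums 1 was called higher, which was proline. The rise of tRF3b and tRF5 missed the threshold without WT replicate 3 (adjusted p = 0.0676 and 0.0716), and that of tRF5 also without Tet2 KO replicate 2 (adjusted p = 0.0534). With library size alone as the scale the adjusted p values were 0.0501 for tRF3b and 0.0667 for tRF5. They were 0.0592 for tRF3b and 0.0753 for tRF5 with the replicate number as a block in the fit. Without WT replicate 1 the log2 fold changes were 0.94 for tRF3a, 0.65 for tRF3b and 0.62 for tRF5, and all 3 remained called.

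By isoacceptor, 5 of 9 sums rose in experiment 1, beside 25.9% of the 135 sums of all isoacceptors and kinds. These were tRF3a of ProAGG, ProCGG and ProTGG, with log2 fold changes of 0.71, 0.70 and 0.76, tRF3b of ProCGG (0.60) and tRF5 of ProCGG (0.53). Since tRF3a counts did not tell the anticodons apart, the 3 tRF3a sums are not separate observations. The scaling factors of this fit differ from those above, which is why the fold changes of all 3 kinds are smaller here. For tRF3b they were 0.40 to 0.60, against 0.79 for the proline sum above. For tRF5 they were -0.05 to 0.53, against 0.66. The size of the rise thus depends on the scale. The ProCGG tRF5 sum averaged 4979 ± 866 CPM in Tet2 KO and 3452 ± 418 CPM in WT cells (SD, n = 3 each; edgeR adjusted p = 0.0226). It missed the threshold when any of 4 libraries was left out: WT replicate 2 or 3, or Tet2 KO replicate 2 or 3 (adjusted p up to 0.114). The ProAGG tRF5 sum averaged 1380 ± 98.8 CPM in Tet2 KO and 1430 ± 193 CPM in WT cells (edgeR log2 fold change -0.05, adjusted p = 0.766), and the ProTGG tRF5 sum 2171 ± 284 CPM in Tet2 KO and 1956 ± 140 CPM in WT cells (0.15, adjusted p = 0.429).

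Counted row by row, 20 of the 42 proline rows that passed the count filter were called higher in Tet2 KO, beside 21.2% of all 598 rows, and 0 lower by edgeR, also 0 at an unadjusted p under 0.05 and 0 by DESeq2. They were all 14 tRF3a rows, with log2 fold changes of 0.68 (chr1.tRNA1030-ProCGG) to 0.92 (chr7.tRNA443-ProTGG), 4 of 14 tRF3b rows and 2 of 14 tRF5 rows. The tRF3b rows were chr1.tRNA1030-ProCGG (0.84), chr11.tRNA396-ProCGG (0.64), chr14.tRNA711-ProAGG (0.63) and chr13.tRNA969-ProAGG (0.62), though tRF3b counts, like tRF3a counts, barely tell the copies apart. The tRF5 rows were chr11.tRNA396-ProCGG and chr1.tRNA1030-ProCGG. The first had 190, 246 and 222 tRF5 counts in Tet2 KO cells, against 109, 110 and 95 counts in WT cells, a log2 fold change of 0.74 ± 0.22 (SE; edgeR adjusted p = 0.0288). The second had 218, 242 and 205 tRF5 counts in Tet2 KO cells, against 121, 118 and 98 in WT cells, a log2 fold change of 0.63 ± 0.18 (SE; edgeR adjusted p = 0.0272). Knockout counts were above WT counts in every library for both. The last ProCGG copy, chr17.tRNA82-ProCGG, had 263, 268 and 210 tRF5 counts in Tet2 KO cells, against 150, 132 and 140 in WT cells, and missed the threshold (edgeR adjusted p = 0.0523). Without WT replicate 3 the number of rows called higher was 13, and in 1 fit over all 12 small RNA libraries it was 32. Since the 14 tRF3a rows are nearly equal, they are not 14 separate observations.

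The second test set the other Tet2 KO cells against E14 cells in experiment 2. The tRF3a sum rose again: it was 15403, 12673 and 10941 CPM in Tet2 KO cells, against 7024, 8380 and 7431 CPM in E14 cells. Every knockout library lay above every E14 library, and the log2 fold change was 0.77 ± 0.19 (SE; edgeR adjusted p = 0.00112). With the replicate number as a block in the fit, the log2 fold change was 0.76 and missed the threshold (adjusted p = 0.0625). The tRF5 sum was 14112, 10400 and 13041 CPM in Tet2 KO cells, against 6955, 11752 and 9305 CPM in E14 cells, so the groups overlapped (edgeR log2 fold change 0.42 ± 0.19, adjusted p = 0.102). Without E14 replicate 2, the highest control library, the tRF5 sum passed the threshold, with a log2 fold change of 0.69 (adjusted p = 0.0265). The tRF3b sum had 48 to 78 counts a library in Tet2 KO and 40 to 51 in E14 cells (edgeR log2 fold change 0.07 ± 0.22, adjusted p = 0.865). Of all 57 sums of 1 amino acid and 1 kind, 10.5% were called higher, and 5 of 18 tRF3a sums were among them. Of 21 tRF5 sums 1 was called higher and 3 lower. The 1 called higher was not proline, which was at rank 3 of the tRF5 sums by fold change.

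By isoacceptor, tRF3a of ProTGG (log2 fold change 0.74, edgeR adjusted p = 0.0321) and ProAGG (0.65, adjusted p = 0.0328) rose in experiment 2, beside 6.50% of 123 sums. For tRF3a of ProCGG the log2 fold change was 0.56 (adjusted p = 0.109). Since tRF3a counts did not tell the anticodons apart, these calls do not show a difference between isoacceptors. The ProTGG and ProAGG calls both missed the threshold without E14 replicate 3 or without Tet2 KO replicate 1. The ProAGG call also did so without E14 replicate 1 or Tet2 KO replicate 2. With the replicate number as a block in the fit, ProAGG and ProTGG both missed it (adjusted p = 0.113 each). The other 6 proline sums, of tRF3b and tRF5, had log2 fold changes of -0.17 to 0.40 and were not called.

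By row, 15 of 29 proline rows passing the filter were called higher in experiment 2, beside 9.64% of 498 rows, and 0 lower by edgeR, also 0 at an unadjusted p under 0.05 and 0 by DESeq2. They were 12 of 14 tRF3a rows, with log2 fold changes of 0.66 to 1.02 (highest for chr13.tRNA969-ProAGG), and the tRF5 rows of chr6.tRNA46-ProAGG (0.71), chr17.tRNA82-ProCGG (0.64) and chr7.tRNA979-ProAGG (0.63). The tRF5 row of chr17.tRNA82-ProCGG had 237, 147 and 140 counts in Tet2 KO cells, against 73, 113 and 77 in E14 cells, with no overlap. The other tRF3a rows, chr3.tRNA93-ProAGG (0.63, adjusted p = 0.0582) and chr1.tRNA1030-ProCGG (0.61, adjusted p = 0.0631), missed the threshold. The most abundant proline tRF5 row of this experiment, chr17.tRNA995-ProTGG, had 266, 163 and 192 counts in Tet2 KO cells, against 98, 162 and 113 in E14 cells. Its log2 fold change was 0.38 ± 0.21 (SE; edgeR adjusted p = 0.262). The other abundant tRF5 rows that were not called were chr13.tRNA969-ProAGG (0.60), chr1.tRNA1030-ProCGG (0.54), chr1.tRNA672-ProAGG (0.51), chr14.tRNA711-ProAGG (0.43) and chr11.tRNA207-ProTGG (0.34), with adjusted p values of 0.0671 to 0.405. The log2 fold change of chr11.tRNA396-ProCGG tRF5 was 0.18 (adjusted p = 0.742), the lowest of the 15 tRF5 rows. No tRF3b row passed the filter. The number called higher depended on single libraries: it was 8 without E14 replicate 3, 2 without Tet2 KO replicate 1 and 6 without Tet2 KO replicate 2. In 1 fit over all 12 small RNA libraries it was 2.

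**Figure D3:**
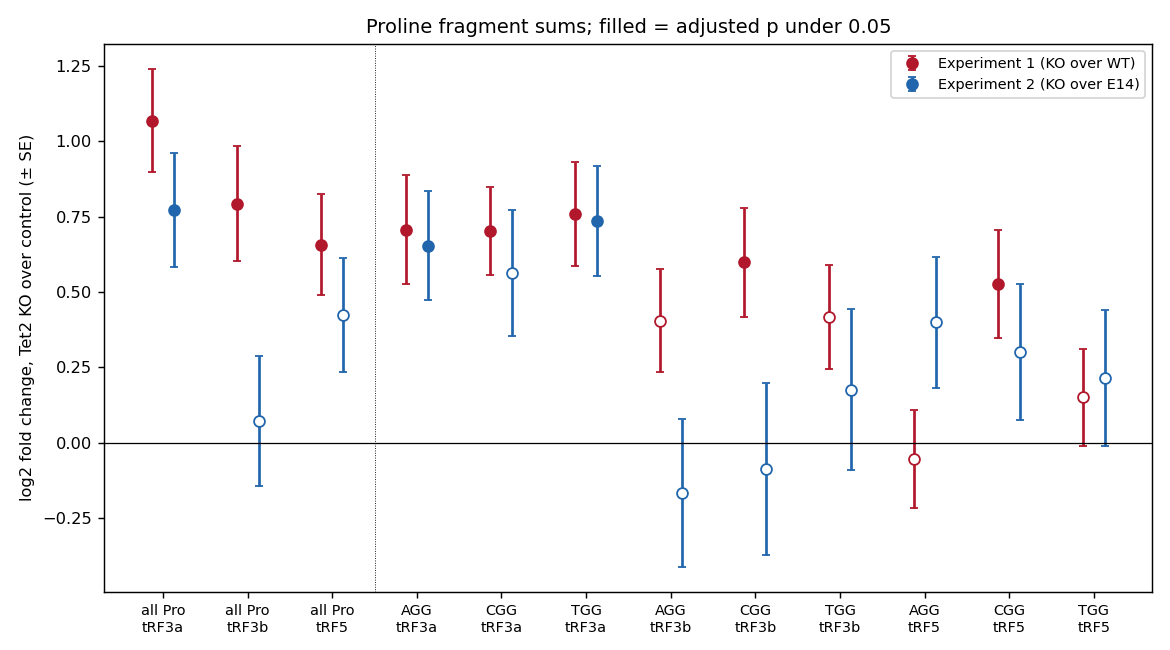
Log2 fold change of summed proline fragment counts, Tet2 KO over WT (experiment 1, red) and over E14 (experiment 2, blue), with SE. Left of the dotted line all proline copies are summed by kind, right of it by isoacceptor and kind. The sides come from separate fits with different scaling factors, so values do not compare across the line. Filled points passed an adjusted p of 0.05: in experiment 2 these are 3 tRF3a sums, in experiment 1 also sums of tRF3b and tRF5. The tRF3a sums are not separate observations, since tRF3a counts did not tell the anticodons apart.

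Averaged over both experiments in 1 fit of 12 libraries, the proline tRF3a sum rose with a log2 fold change of 0.80 ± 0.11 (SE; edgeR adjusted p = 4.99e-06) and the tRF5 sum with 0.41 ± 0.13 (adjusted p = 0.0181). The tRF3b sum did not pass (0.31 ± 0.16, adjusted p = 0.147), though it did without WT replicate 2 (0.53, adjusted p = 0.0208). Of all 60 sums, 18.3% were called higher. By fold change tRF3a of proline was at rank 2 of 19 tRF3a sums, and proline was the 1 tRF5 sum of 21 called higher, beside 10 called lower. By row, 19 of 42 proline rows were called higher, beside 17.3% of 698 rows: the 14 tRF3a rows and the tRF5 rows of chr1.tRNA1030-ProCGG, chr17.tRNA82-ProCGG, chr11.tRNA396-ProCGG, chr7.tRNA979-ProAGG and chr17.tRNA995-ProTGG. Those 5 tRF5 rows had log2 fold changes of 0.57 to 0.74.

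The knockout effect on the proline sums was not shown to differ between the experiments. The difference, experiment 2 minus experiment 1, was -0.14 on the log2 scale for tRF3a (95% interval -0.57 to 0.30), -0.57 for tRF3b (-1.20 to 0.06) and -0.09 for tRF5 (-0.61 to 0.44). None passed the edgeR test, at adjusted p values of 0.723, 0.176 and 0.863, and 10.0% of the 60 sums were called lower. By row, 2 of 42 proline rows were called lower in this difference, beside 13.8% of 698 rows, whose median was -0.39. They were tRF5 of chr11.tRNA396-ProCGG and tRF3b of chr14.tRNA711-ProAGG. DESeq2 called 0, and so did the edgeR fits that left out WT replicate 1, Tet2 KO replicate 3 of experiment 1, or any library of experiment 2; without Tet2 KO replicate 2 of experiment 1 the count was 1.

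TET2 CLIP held few proline tRNA reads. Each library had 7 to 29 of them in TET2 CLIP and 14 to 28 in input, and 9 of the 18 genes had any count, at most 34 over the 8 libraries. No single proline gene passed the count filter, so the genes were summed. With a library left out the filter could let a gene through, and 1 was called higher over both clones without replicate 2 of TET2 CLIP in clone 65, without replicate 1 of input in clone 75, or without either TET2 CLIP library of clone 75. The proline sum rose in TET2 CLIP over input in both clones. It was 61.0 and 72.2 CPM in TET2 CLIP, against 5.59 and 5.13 CPM in input, in clone 65, and 65.3 and 27.8 CPM in TET2 CLIP, against 18.4 and 11.0 CPM in input, in clone 75. All CLIP libraries were above the input libraries of their clone. Log2 fold changes were 3.63 ± 0.52 in clone 65 (SE; edgeR adjusted p = 3.40e-06) and 1.96 ± 0.43 in clone 75 (adjusted p = 0.00233), and 2.80 ± 0.34 over both clones (adjusted p = 1.17e-07). Of all genes and sums in this fit, 7.79%, 5.80% and 8.52% were called higher in those comparisons. With the replicate number as a block in the fit, the clone 75 value was 1.61 and missed the threshold (adjusted p = 0.0947). Clone 75 lost its call without TET2 CLIP replicate 1 (log2 fold change 0.99, adjusted p = 0.551) or without input replicate 2 (1.40, adjusted p = 0.251). The difference of the clones was -1.68, clone 75 minus clone 65 (95% interval -2.89 to -0.46), and was not called after adjustment (edgeR adjusted p = 0.168), beside 2.23% of genes and sums called lower. All 20 amino acid sums were negative in this difference, at -2.52 to -0.37 with a median of -0.92. Of them 7 were called lower, and proline was at rank 15.

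The rise in CLIP was shared by tRNAs in general. All 20 amino acids tested were called higher over both clones, with log2 fold changes of 1.41 to 4.32, and proline was at rank 14. Within the tRNA reads, proline took 0.552% and 0.565% in TET2 CLIP of clone 65, against 0.240% and 0.224% in input. In clone 75 it took 1.09% and 0.533% in TET2 CLIP, against 0.968% and 0.559% in input, so the groups overlapped. With 7 to 29 reads a library these shares are imprecise: the exact 95% binomial interval of the 1.09% ran from 0.728% to 1.56%, and it covers counting error only.

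By isoacceptor, ProTGG and ProCGG could be tested in CLIP, and ProAGG, with 38 reads in all, did not pass the filter. ProTGG rose over both clones with a log2 fold change of 3.02 ± 0.52 (SE, edgeR adjusted p = 5.19e-05) and ProCGG with 2.40 ± 0.64 (adjusted p = 0.00868). Of the 10291 genes and sums in this fit, 8.66% were called higher. In clone 65, where 7.93% of genes and sums were called higher, both isoacceptors rose (ProTGG 3.84, ProCGG 3.55). In clone 75, where 5.89% were called, ProTGG rose by a log2 fold change of 2.19 (adjusted p = 0.0424) and ProCGG had 1.24 (adjusted p = 0.426). These calls rest on few reads: ProCGG had 1 and 7 reads in TET2 CLIP of clone 65, against 8 and 7 in input libraries of over 10 times the depth, and its call over both clones was lost without any of 6 of the 8 libraries. In clone 65 the ProCGG call was lost in 5 such fits and the ProTGG call in 2. In clone 75 the ProTGG call was lost in each of the 8 fits that left out 1 library.

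**Figure D4:**
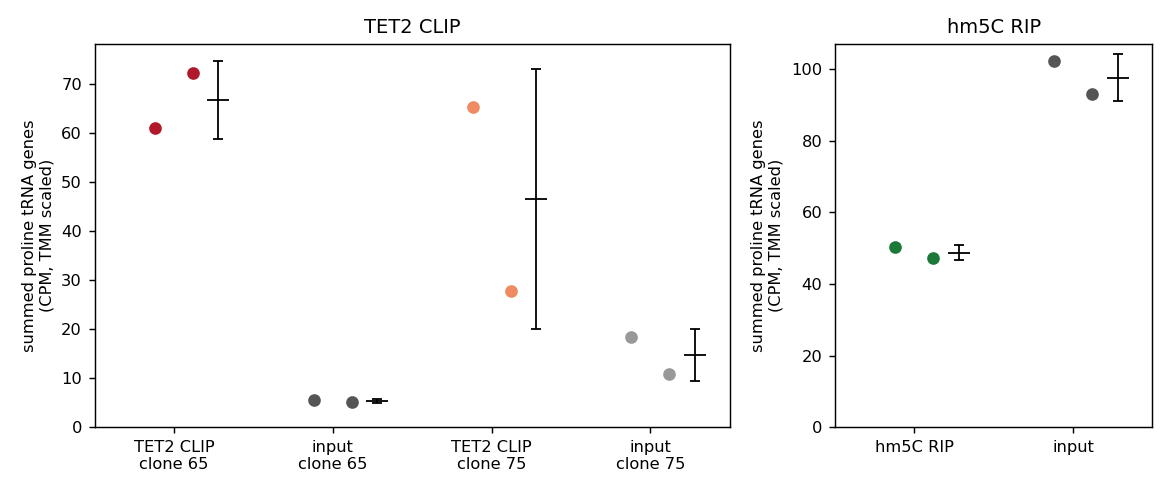
Summed proline tRNA genes in CPM after TMM scaling; each coloured point is 1 library, and the black bar and whiskers give the mean and SD of 2. Proline reads are higher in TET2 CLIP than in input of clones 65 and 75, and lower in hm5C RIP than in input.

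In the hm5C RIP the proline sum was lower than in input. It was 50.3 and 47.2 CPM in hm5C RIP, against 102 and 93.0 CPM in input, from 76 and 118 reads against 415 and 434. The libraries did not overlap, and the log2 fold change was -1.001 ± 0.26 (SE; edgeR adjusted p = 0.0152), beside 18.9% of genes and sums called lower. Among 21 amino acids proline was at rank 19, and the median amino acid was at -0.30. This direction depended on the scaling in 1 of 11 alternatives, while the other 10 kept direction and call. A single row, Acsl6, took 57.9% ± 3.84 of counts in hm5C RIP and 0.211% ± 0.0619 in input (SD, n = 2 each). When Acsl6 was dropped and libraries were scaled by their totals only, the proline log2 fold change was 0.53 (adjusted p = 0.105). Within tRNA reads, which that scale does not touch, proline took 0.398% and 0.444% in hm5C RIP, against 0.559% and 0.513% in input.

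The reads in the RIP tables came from ProCGG and ProTGG genes, and ProAGG had 4 in all, each of them in input. The ProCGG sum fell, with 15.1 ± 2.03 CPM in hm5C RIP and 54.1 ± 8.53 CPM in input (SD, n = 2 each). The log2 fold change was -1.85 ± 0.31 (SE, edgeR adjusted p = 0.000227), beside 22.3% of the 2008 genes and sums called lower. The ProTGG sum averaged 31.7 ± 6.99 CPM in hm5C RIP and 47.5 ± 3.04 CPM in input (log2 fold change -0.58 ± 0.29, adjusted p = 0.106). Without Acsl6 and on library size alone, ProCGG was at -0.21 (adjusted p = 0.606) and ProTGG at 1.07 (adjusted p = 0.00683). On both scales ProCGG lay below ProTGG.

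Of the 4 proline genes that passed the RIP filter, 1 was called lower, beside 18.9% of 2081 rows called lower and 33.0% higher. This was chr17.tRNA82-ProCGG, with 23 and 25 reads in hm5C RIP, against 193 and 187 in input (edgeR log2 fold change -1.79 ± 0.33, adjusted p = 0.00267). Without either hm5C RIP library 2 genes were called lower. RefSeq places a single proline CGG gene on that chromosome, n-TPcgg1, at chr17:23540915-23540986 of GRCm38.p6, though the files give no coordinates to check that they are the same. Next came chr17.tRNA995-ProTGG with 37 and 67 reads in hm5C RIP, against 151 and 186 in input (-0.54, adjusted p = 0.141), and chr11.tRNA396-ProCGG with 6 and 7 reads, against 43 and 25 (-1.22, adjusted p = 0.104). The last, chr11.tRNA207-ProTGG, had 7 and 8 reads in hm5C RIP, against 14 and 21 in input (-0.03, adjusted p = 0.982). The 4 genes were not equally low, and without Acsl6 on library size alone chr17.tRNA82-ProCGG was at -0.31 and chr17.tRNA995-ProTGG at 0.96.

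Reads of the RIP table lay mostly on 2 gene copies. There chr17.tRNA82-ProCGG had 428 reads and chr17.tRNA995-ProTGG 441, and the other 16 genes had 81 or fewer. Both were also among the 4 genes with the most tRF5 counts, with 1950 for chr17.tRNA82-ProCGG and 1385 for chr17.tRNA995-ProTGG over the 12 small RNA libraries, while chr1.tRNA1030-ProCGG had 1789 tRF5 counts and 0 RIP reads. Of the 14 genes with even tRF3a counts, chr1.tRNA1030-ProCGG, chr1.tRNA672-ProAGG, chr6.tRNA46-ProAGG and others had 0 reads in both the CLIP and the RIP table. The assignment of reads between copies is not known, so values of single copies in the CLIP and RIP tables are uncertain.

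Genes that charge, modify, cut or carry proline tRNA were read from the same CLIP and RIP fits. Of the 24 symbols listed, 23 were in the tables and 18 were tested in CLIP. Over both clones 4 rose, beside 8.99% of 10334 rows. No listed gene was called lower by edgeR, beside 5.83%, and 1, mt-Tp, was lower at an unadjusted p under 0.05. The 4 were Rpph1, the RNA of RNase P that trims the 5′ end of tRNA precursors (2.61), Tet3, a relative of TET2 (0.90), Elac2, which cuts the 3′ trailer (0.89), and Dicer1, a nuclease of small RNA processing (0.66). Rpph1 averaged 1931 ± 330 CPM in TET2 CLIP and 196 ± 29.0 CPM in input of clone 65 (SD, n = 2 each). In clone 75 it averaged 827 ± 148 CPM in TET2 CLIP and 213 ± 33.1 CPM in input (SD, n = 2 each). In clone 65 alone 4 of the 18 rose, beside 8.21% of rows: Rpph1 (3.30), Ssb, the La protein that binds the ends of new tRNA transcripts (1.53), Tet3 (1.37) and Dicer1 (0.92). In clone 75 alone 1 rose, Rpph1 (1.92), beside 6.22% of rows, and 1 fell, mt-Tp, beside 3.93%.

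The gene for the enzyme that charges cytosolic proline tRNA, Eprs, averaged 121 ± 40.2 CPM in TET2 CLIP and 163 ± 18.2 CPM in input of clone 65. In clone 75 it averaged 126 ± 25.8 CPM in TET2 CLIP and 128 ± 14.7 CPM in input (SD, n = 2 each). Over both clones the edgeR log2 fold change of Eprs was -0.19 (adjusted p = 0.511). The cytosine methyltransferase gene Nsun2 was at -0.22 (adjusted p = 0.554) and Tet2 itself at -0.01 (adjusted p = 0.968). Trdmt1, which encodes another tRNA cytosine methyltransferase, did not pass the filter. The mitochondrial proline tRNA mt-Tp, which is no member of the 18, fell in TET2 CLIP of clone 75 (edgeR log2 fold change -0.98, adjusted p = 0.00151) and had 0.29 in clone 65 (adjusted p = 0.426). In the difference, clone 75 minus clone 65, 3 of the 18 listed genes were called lower, beside 2.22% of rows: Ssb (-2.43, edgeR adjusted p = 0.0295), Rpph1 (-1.37, adjusted p = 0.00159) and mt-Tp (-1.27, adjusted p = 0.0140). In RIP 6 of the listed genes were tested and 2 fell, beside 18.9% of 2081 rows: mt-Tp, with 26.6 ± 10.6 CPM in hm5C RIP and 82.6 ± 7.26 CPM in input, and Rpph1, with 16.2 ± 0.614 CPM in hm5C RIP and 41.3 ± 0.907 CPM in input (SD, n = 2 each; edgeR adjusted p = 0.00372 and 0.00540).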

How the data were processed

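The authors deposited whole-number counts per gene for CLIP and RIP and per tRNA fragment for small RNA. Per the submitters' processing notes the tools included Bowtie2 2.2.6 and STAR 2.5.3a, and also cutadapt and UMI-tools, with build mm10. Counts were tested with the edgeR 4.0.16 quasi-likelihood test in R 4.3.3 (TMM scaling, minimum count 10 in the count filter, Benjamini-Hochberg adjustment over all features of a fit, threshold 0.05). CLIP, RIP and each small RNA experiment had a fit of their own, and a fit of all 12 small RNA libraries gave the average and the difference of the experiments. Proline rows were tested singly, summed by isoacceptor and, added after the even tRF3a counts were seen, summed over all copies, with other tRNAs summed alike. DESeq2 1.42.0 was an alternative. Scripts were tested on simulated data. Named were all proline members that passed a test, isoacceptor sums, every tested member where 12 or fewer were tested (otherwise the 12 with the highest mean CPM, the tRF3a rows among them being given as a range) and pathway genes past the test, with Eprs, Nsun2, Trdmt1, Tet2 and mt-Tp; other members were named after their values were seen. The members and lists were chosen with earlier results of these data known. The design text calls replicates biological. Total counts set the precision of the shares, and their binomial intervals cover counting error only. The 95% intervals of log2 differences are the value ± 1.96 SE, with the SE of the edgeR fit. RefSeq positions (GRCm38.p6) were matched by chromosome and anticodon.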

Additional observations from a re-analysis of the deposited data

Results flagged for a closer look

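Among the 42 proline rows tested, 2 had a knockout effect that differed between the experiments in a test of the difference itself (edgeR quasi-likelihood test, experiment 2 minus experiment 1). Both were called lower, as were 13.8% of all 698 rows, so calls of this kind were not more common among proline rows. In the fit of 12 libraries the tRF5 row of chr11.tRNA396-ProCGG differed by -1.11 ± 0.34 on the log2 scale (SE; adjusted p = 0.0204). The row had log2 fold changes of 0.74 in the fit of experiment 1 alone and 0.18 in that of experiment 2 alone, a smaller gap. It had 190, 246 and 222 counts in Tet2 KO and 109, 110 and 95 in WT cells of experiment 1, and 146, 88 and 120 counts in Tet2 KO and 63, 112 and 71 in E14 cells of experiment 2.

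The tRF3b row of chr14.tRNA711-ProAGG differed by -1.94 ± 0.64 (SE; adjusted p = 0.0343). It had 59, 65 and 58 counts in Tet2 KO and 27, 34 and 32 in WT cells of experiment 1. In experiment 2 it had 4, 4 and 3 counts in Tet2 KO and 6, 4 and 5 in E14 cells, which is few. The calls held in 5 of 17 alternatives for the chr11.tRNA396-ProCGG row and in 3 of 17 for the chr14.tRNA711-ProAGG row, and the median of all 698 rows in this difference was -0.39.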

How the results depend on the processing

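The proline tRF3a sum kept its call in 12 of 12 alternatives in experiment 1 (log2 fold change 0.86 to 1.21), 11 of 12 in experiment 2 (0.66 to 0.95) and 17 of 17 over both (0.75 to 1.08). Over the summed proline tests and counts of calls, 420 of 485 alternatives kept the result. For a fold change this means direction and side of the threshold, and for a count of calls less than a 1.5-fold change. Counts that were 0 in every setting, such as proline genes called lower in CLIP, are among those kept. Over isoacceptor sums 425 of 497 alternatives kept direction and side of the threshold, and 10 reversed. Unless said otherwise, the cause of a change was not tested.

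Same-numbered libraries correlated at -0.331 to 0.271. These low values cannot decide whether replicate numbers pair the samples, so fits with the replicate number as a block are given too. With the replicate block, rows called higher in experiment 1 were 13, and rows called lower in the difference of experiments 1. The proline sums with the block were 0.80 for tRF3b and 0.65 for tRF5 in experiment 1, 0.76 for tRF3a in experiment 2 and 1.61 in CLIP of clone 75, each with an adjusted p above 0.05 (0.0625 for tRF3a in experiment 2). The isoacceptor sums that missed the threshold with the block were ProAGG (0.65) and ProTGG (0.73) tRF3a in experiment 2, at an adjusted p of 0.113 each, ProCGG tRF5 in experiment 1 (0.52) and over both experiments (0.45), and ProTGG in CLIP of clone 75 (1.89).

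With library size alone, tRF3b was 0.94 and tRF5 0.83 in experiment 1, tRF5 was 0.60 in experiment 2, and 0 rows were lower in the difference. Isoacceptor sums that reversed on that scale were ProAGG tRF5 in experiment 1 (0.42) and ProAGG and ProCGG tRF3b in experiment 2 (0.10 and 0.17). DESeq2 size factors and the DESeq2 test each gave 0.45 for tRF3b over both experiments, -0.033 and -0.034 for tRF3b in experiment 2, and 0 rows in the difference. Without a count filter 2 rows were called higher in CLIP of both clones, 1 in clone 65, 2 lower in RIP and 0 lower in the difference, and tRF5 in the difference was 0.0015. A fit of 12 libraries called 32 rows in experiment 1 and 2 in experiment 2, and the libraries of clone 65 alone 1.

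In RIP without Acsl6 on library size alone, 1 row was higher and 0 lower, and values were 0.53 for the proline sum, 1.07 for ProTGG, 1.44 for chr11.tRNA207-ProTGG, 0.27 for chr11.tRNA396-ProCGG and 0.96 for chr17.tRNA995-ProTGG. The row chr11.tRNA207-ProTGG also reversed on library size alone (0.18) and with DESeq2 (0.0091).

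With each library left out in turn, rows called higher were 13 to 20 in experiment 1, 2 to 14 in experiment 2, 0 to 1 in CLIP of both clones, 0 to 1 in clone 65 and 0 to 1 in the difference, and rows called lower were 1 to 2 in RIP and 0 to 2 in the difference. Sums were 0.59 to 0.89 (tRF3b) and 0.52 to 0.74 (tRF5) in experiment 1, 0.27 to 0.69 (tRF5) in experiment 2, 0.30 to 0.55 (tRF3b) over both, 0.99 to 2.26 in CLIP of clone 75, and -0.71 to 0.10 (tRF3a) and -0.68 to 0.19 (tRF5) in the difference. Isoacceptor sums and genes that reversed were ProAGG tRF5 in experiment 1 (-0.16 to 0.013), ProCGG tRF3b (-0.16 to 0.071) and ProTGG tRF5 (-0.0013 to 0.44) in experiment 2, ProCGG in CLIP of clone 75 (-0.53 to 1.68) and chr11.tRNA207-ProTGG in RIP (-0.33 to 0.15). Depth limits CLIP most, at 7 to 29 proline reads a library.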
